A study of Mus musculus with 24 samples.

Results

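The collagen genes are the 42 genes whose symbol in the platform annotation is Col, a number, a and a number, out of 19505 genes measured on Clariom S arrays in mouse tumours. Each gene was represented by the probe set with the highest mean, and each of the 42 had a single probe set. By class they comprised 11 fibrillar collagens, 6 basement membrane collagens (type IV), 3 network collagens, 8 FACIT collagens (fibril-associated collagens with interrupted triple helices), 6 beaded filament collagens (type VI), 2 multiplexins, 4 transmembrane collagens and 2 others. Col7a1, Col12a1 and Col21a1 were not analysed here.

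By its title the study deals with pancreatic ductal adenocarcinoma (PDAC), and it holds 24 tumours in 4 groups of 6. The groups were treated with BMS754807, a kinase inhibitor that acts on both the IGF1 receptor and the insulin receptor (IGF1R/IR), with hydroxychloroquine, which raises lysosomal pH and blocks the last step of autophagy, with both agents (called the combination), or with vector as the control. The mouse strain, age and genotype, the tumour model and its site, the doses and the treatment times were not given in the sources used here. No label states that the tumours of a group were taken from different animals, and errors and p-values therefore measure the spread between these samples only.

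Collagens are secreted or membrane-bound proteins in which 3 chains wind into a triple helix. Fibrillar collagens are cut by proteases outside the cell and assemble into cross-linked fibrils, FACIT collagens sit on the surface of those fibrils, and type IV and network collagens form sheets and lattices. In pancreatic ductal adenocarcinoma a dense collagen-rich stroma, laid down mostly by fibroblasts, surrounds the malignant epithelium. The homogenised tumours mix these cells, so that fewer cells of a type and less RNA per cell cannot be told apart.

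The arrays were alike in scale, with medians between 6.79 and 7.03 log2. Of the epithelial markers, Krt8, Krt18, Krt19, Krt7, Epcam and Cdh1 exceeded the array's own median on 24 of 24 arrays, Cldn7 on 21, Cldn4 and Cldn3 on 19 and Esrp1 on 4. In limma, 0 of 19505 genes had an adjusted p under 0.05 in any of the 6 comparisons made, which is 0% of genes. The 3 tumours of lowest array weight in limma (BMS754807 tumour 6, hydroxychloroquine tumour 4 and control tumour 5) had the 3 highest medians of the fibrillar collagens. In the same order, 24, 32 and 30 of the 42 collagens lay above the gene's mean in them.

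No collagen gene passed the test in any comparison, and the adjusted p of the 42 genes lay between 0.393 and 1 over the 6 comparisons (limma). At an unadjusted p under 0.05, 0 collagens lay higher (2.78% of all genes) and 2 lower (3.09% of all genes) in BMS754807 tumours than in control tumours, where 5.88% of all genes passed in either direction. For hydroxychloroquine against control the counts were 0 higher (2.43% of all genes) and 1 lower (2.38%), with 4.81% of all genes in either direction. For the combination against control they were 1 higher (2.66% of all genes) and 2 lower (2.39%), with 5.06% in either direction. These counts are close to what the shares over all genes would give among 42 genes. The 3 comparisons share the 6 control tumours. A test of any difference between the 4 groups gave an unadjusted p under 0.05 for 7.21% of all genes and for 4 collagens. These were Col8a1, Col8a2, Col4a2 and Col10a1, with unadjusted p of 0.0120, 0.0120, 0.0361 and 0.0362 in limma's F test and adjusted p between 0.568 and 0.671. The count of 4 is also close to what the share over all genes would give among 42 genes. Of the 4, 3 were network collagens.

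Fewer collagens lay above control with the combination than with either single agent, by small differences. In BMS754807 tumours 23 of 42 collagens had a higher mean than in control tumours, with a median log2 difference of 0.03, while 50% of all genes lay higher with a median of 0.00. In hydroxychloroquine tumours 26 of 42 lay higher, with a median of 0.06, beside 49.6% of all genes. In combination tumours 10 of 42 lay higher, with a median of -0.10, beside 51.4% of all genes. That last count rested in part on control tumour 5, in which many collagens were high: without it, 19 of 42 lay higher in the combination. The per-tumour collagen median had an SD of 0.26 within groups, larger than each of these median differences. Several collagens moved together between tumours, so the genes in these counts are not separate observations.

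**Figure D1:**
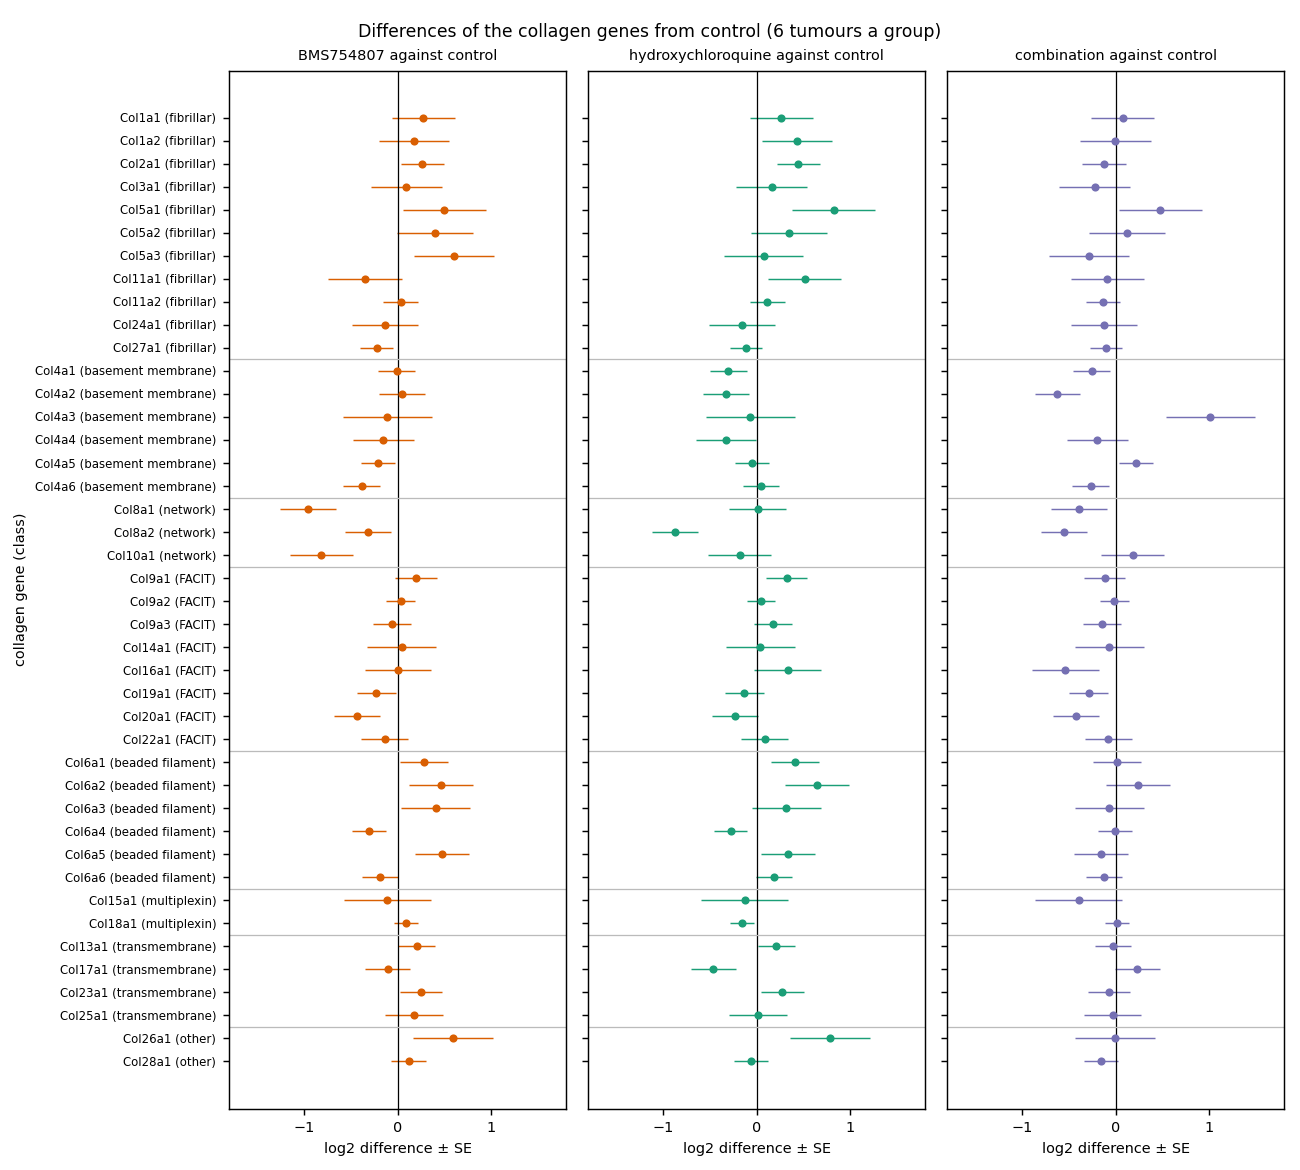
Log2 difference from control for each of the 42 collagen genes (vertical axis, grouped by class) in BMS754807, hydroxychloroquine and combination tumours, as points with bars of 1 SE (6 tumours a group). The network collagens Col8a1 and Col10a1 lie furthest below 0 with BMS754807 and Col8a2 with hydroxychloroquine, whereas Col4a3 lies furthest above 0 with the combination.

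No fibrillar collagen passed the test. Of 11 fibrillar genes, 8 lay higher in BMS754807 tumours (median log2 difference 0.17), 9 in hydroxychloroquine tumours (0.26) and 3 in combination tumours (-0.11), each against control. Without control tumour 5 the count for the combination was 7 of 11 and the median 0.03. The single-agent values also depended on single tumours. With 1 tumour left out at a time, the BMS754807 median ran from 0.02 to 0.30 and its count from 6 to 9. For hydroxychloroquine the median ran from 0.08 to 0.46 and the count from 7 to 9. Col1a1 and Col1a2 encode the chains of type I collagen, the bulk of most fibrils, and Col3a1 encodes type III.

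Col1a1 ran from 15.31 to 16.62 in BMS754807 tumours (median 15.71), from 14.87 to 16.83 in hydroxychloroquine tumours (15.84), from 14.91 to 16.18 in combination tumours (15.77) and from 14.54 to 16.85 in control tumours (15.57). The 4 groups overlapped almost entirely, and the highest and the lowest tumour were both controls. Its differences from control were 0.27, 0.26 and 0.07 for BMS754807, hydroxychloroquine and the combination (SE 0.33 each, adjusted p at least 0.985 in limma).

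Col1a2 had medians of 15.42 in BMS754807, 15.94 in hydroxychloroquine, 15.42 in combination and 15.41 in control tumours, with ranges of 14.96 to 16.35, 14.40 to 17.01, 14.64 to 15.99 and 14.58 to 16.65. The hydroxychloroquine group held both the highest and the lowest tumour. Its difference from control was 0.43 ± 0.37 there, and -0.00 ± 0.37 in the combination. Col3a1 ran from 14.64 to 17.21 in hydroxychloroquine tumours against 15.11 to 16.96 in control tumours, and its differences from control were 0.10 with BMS754807, 0.16 with hydroxychloroquine and -0.23 with the combination (SE 0.38 each). Here too the groups overlapped.

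Type V collagen is incorporated into type I fibrils and limits their diameter. Its chain Col5a1 had the largest difference of the class from control, 0.82 ± 0.44 in hydroxychloroquine tumours (unadjusted p = 0.0757, adjusted p = 0.979 in limma). It ran from 8.38 to 11.56 in hydroxychloroquine tumours (median 9.99) against 7.85 to 10.79 in control tumours (9.03), so that 5 of 6 treated tumours exceeded the control mean. The difference was 0.51 without hydroxychloroquine tumour 4, the highest of the 24. Col5a3 differed by 0.60 ± 0.43 in BMS754807 tumours, which ran from 5.34 to 8.01 against 5.40 to 8.03 in control tumours, and by 0.34 without BMS754807 tumour 6 or 0.99 without control tumour 5.

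Col2a1 and Col11a1 are best known as genes of cartilage. Col2a1 lay 0.45 ± 0.23 higher in hydroxychloroquine tumours (4.59, 4.71 and 5.86 as lowest, median and highest) than in control tumours (4.12, 4.37 and 5.04), with adjusted p = 0.979 in limma. All 6 treated tumours exceeded the control mean, yet the ranges overlapped. Without hydroxychloroquine tumour 2 the difference was 0.26. Col11a1 lay 0.51 ± 0.39 above control with hydroxychloroquine and at -0.35 ± 0.39 with BMS754807. Of 9 cartilage and bone markers, 6 lay above control with BMS754807 (median difference 0.22), 6 with hydroxychloroquine (0.225) and 4 with the combination (-0.04). With hydroxychloroquine their differences ran from -0.60 for Acan, a cartilage proteoglycan gene, to 0.61 for Hapln1. By mean signal Acan lay at the 70.0th percentile of all genes and the other markers between 1.28 (Matn1) and 29.2 (Comp). None had a detection call. Acan averaged 10.89 in BMS754807, 9.93 in hydroxychloroquine and 9.55 in combination tumours, against 10.53 in control tumours.

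**Figure D2:**
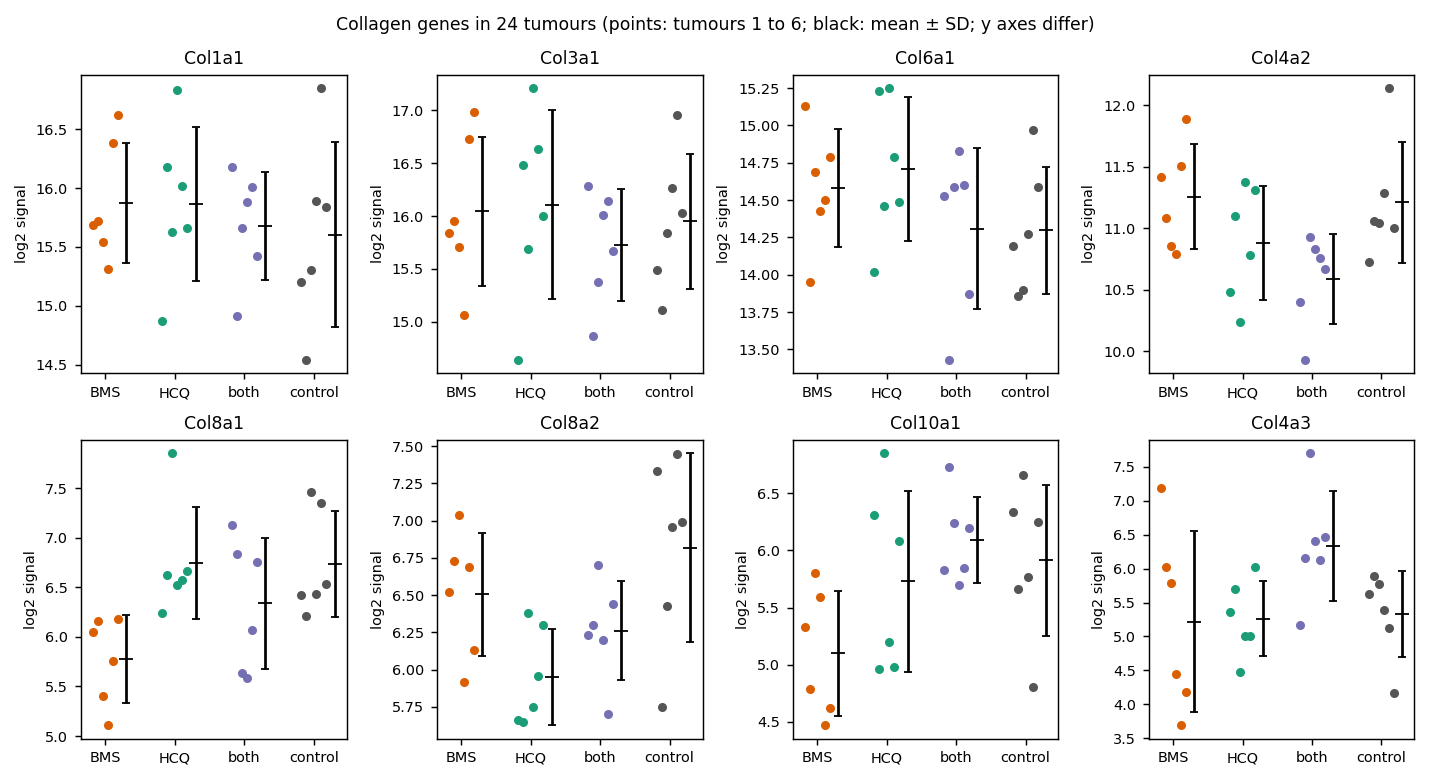
Log2 signal of 8 collagen genes in each tumour (points, tumours 1 to 6 of each group from left to right) with the group mean and SD in black, for BMS754807 (BMS), hydroxychloroquine (HCQ), combination (both) and control; each vertical axis has its own range. The groups overlap for Col1a1, Col3a1 and Col6a1, whereas every BMS754807 tumour lies below every control tumour for Col8a1.

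Type VI collagen forms beaded filaments that link cells to fibrils. Of its 6 genes, 4 lay higher in BMS754807 tumours (median difference 0.35), 5 in hydroxychloroquine tumours (0.33) and 2 in combination tumours (-0.04), each against control, and none passed the test. Without control tumour 5, 4 of 6 lay higher in the combination, and with 1 tumour left out at a time that median ran from -0.11 to 0.11. Col6a1 ran from 13.95 to 15.13 in BMS754807 (median 14.60), 14.02 to 15.25 in hydroxychloroquine (14.64), 13.43 to 14.83 in combination (14.56) and 13.86 to 14.97 in control tumours (14.23). Its 4 ranges overlapped. The differences were 0.28, 0.41 and 0.01 (SE 0.25 each). Col6a2 had the largest difference of the class, 0.65 ± 0.34 with hydroxychloroquine (unadjusted p = 0.0728, adjusted p = 0.979 in limma), with 4 of 6 tumours above the control mean. Col6a3 reached 14.33 in BMS754807, 14.53 in hydroxychloroquine and 13.47 in combination tumours, against 14.78 in control tumours, and its differences were 0.41, 0.32 and -0.07 (SE 0.37 each).

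Col6a5, a chain found in few tissues, lay 0.48 ± 0.29 above control in BMS754807 tumours (2.79, 3.85 and 4.44 as lowest, median and highest, against 2.80, 3.40 and 3.82 in control tumours). Col6a4, whose human counterpart is not an intact gene, lay at -0.30 ± 0.18 with BMS754807 and at -0.28 ± 0.18 with hydroxychloroquine. The table carries no detection call, so whether these 2 probe sets lay above background was not known.

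Basement membrane collagens lay lower than control in 5 of 6 genes with BMS754807 (median difference -0.13), 5 of 6 with hydroxychloroquine (-0.19) and 4 of 6 with the combination (-0.23). None passed the test. The direction with BMS754807 rested on single tumours: without BMS754807 tumour 4, 4 of 6 lay higher than control, and with 1 tumour left out at a time the median ran from -0.25 to 0.03. Col4a1 and Col4a2 encode the chains of the type IV network found in nearly all basement membranes, including those of vessels. Col4a2 ran from 9.93 to 10.93 in combination tumours (median 10.71) against 10.73 to 12.14 in control tumours (11.05). All 6 combination tumours lay below the control mean, although the ranges overlapped. The difference was -0.62 ± 0.24 (unadjusted p = 0.0168, adjusted p = 0.944 in limma) and was -0.44 without control tumour 5. In the same comparison 0 of 9 endothelial markers lay higher (median difference -0.44) and 0 of 9 macrophage markers (-0.61). The endothelial markers, as a centred per-tumour median, ran from -0.65 to -0.03 in combination tumours against -0.80 to 1.42 in control tumours, and the macrophage markers from -0.90 to 0.36 against -0.44 to 1.34. Control tumour 5, included in these counts, set both control maxima, with the next control tumours at 0.28 (endothelial) and 0.27 (macrophage). The part of these markers in the Col4a2 values was not tested.

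Col4a1 ran from 11.88 to 12.79 in BMS754807 (median 12.10), 11.78 to 12.17 in hydroxychloroquine (11.97), 11.65 to 12.22 in combination (12.07) and 11.98 to 13.30 in control tumours (12.02). The groups overlapped, and control tumour 5 alone exceeded 13. Its differences were -0.01, -0.30 and -0.26 (SE 0.20 each), and without control tumour 5 they were 0.20, -0.10 and -0.05.

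Col4a3, a chain of the kidney's glomerular basement membrane, had the opposite direction with the combination. It ran from 5.17 to 7.70 in combination tumours (median 6.29) against 4.17 to 5.89 in control tumours (5.51), and 5 of 6 combination tumours exceeded the control mean. The difference was 1.01 ± 0.48 (unadjusted p = 0.0449, adjusted p = 0.944 in limma) and stayed between 0.74 and 1.24 when single tumours were left out. Col4a3 also had the largest SD of all 42 members over the 24 tumours (0.95). Col4a6, a chain of epithelial and smooth muscle basement membranes, lay at -0.39 ± 0.19 with BMS754807 (2.50 to 2.92, against 2.81 to 3.76 in control tumours). Col4a4, the partner of Col4a3, ran from 4.40 to 6.49 in BMS754807, 4.85 to 5.23 in hydroxychloroquine and 4.72 to 5.99 in combination tumours, against 4.69 to 6.34 in control tumours. All 4 ranges overlapped, and its differences were -0.15, -0.33 and -0.20 (SE 0.32 each). Col4a5 lay 0.22 ± 0.18 above control with the combination.

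Col8a1 and Col8a2 encode type VIII collagen, a short-chain collagen of vessel walls and the cornea, and Col10a1 encodes the type X collagen of hypertrophic cartilage. In BMS754807 tumours 3 of 3 lay lower than in control tumours (median difference -0.81), in hydroxychloroquine tumours 2 of 3 (-0.18) and in combination tumours 2 of 3 (-0.40). A median of 37.8% of the variance of these 3 genes lay between groups, beside 14.9% for all 42 collagens and 12.2% for all genes. No network collagen passed the test.

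Col8a1 ran from 5.11 to 6.18 in BMS754807 tumours (median 5.91) against 6.21 to 7.46 in control tumours (6.48). Every BMS754807 tumour lay below every control tumour, a separation found in 0.174% of all genes in this comparison and in 1 of 42 collagens. The difference was -0.96 ± 0.30 (unadjusted p = 0.00424, adjusted p = 0.793 in limma) and stayed between -1.06 and -0.81 when single tumours were left out. Hydroxychloroquine tumours ran from 6.24 to 7.85 (median 6.60) and combination tumours from 5.59 to 7.13 (6.42), at differences of 0.01 ± 0.30 and -0.40 ± 0.30 from control.

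Col8a2 was lowest in hydroxychloroquine tumours, which ran from 5.65 to 6.38 (median 5.86) against 5.75 to 7.45 in control tumours (6.97). Of the 6 control tumours, 5 exceeded every hydroxychloroquine tumour and tumour 2 fell among them. The difference was -0.87 ± 0.24 (unadjusted p = 0.00167, adjusted p = 0.939 in limma) with hydroxychloroquine and -0.56 ± 0.24 (unadjusted p = 0.0323, adjusted p = 0.944) with the combination, and -0.31 ± 0.24 with BMS754807.

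Col10a1 ran from 4.47 to 5.80 in BMS754807 tumours (median 5.06) against 4.80 to 6.66 in control tumours (6.01). All 6 BMS754807 tumours lay below the control mean, and the ranges overlapped. The difference was -0.81 ± 0.33 (unadjusted p = 0.0228, adjusted p = 0.839 in limma), against 0.18 ± 0.33 with the combination. The cartilage and bone markers, 9 genes taken as a per-tumour median centred on each gene's mean, ran from -0.08 to 0.27 in BMS754807, -0.26 to 0.24 in hydroxychloroquine and -0.12 to 0.07 in combination tumours, against -0.12 to 0.01 in control tumours. All of these markers but Acan were low-valued and had no detection call. Their part in the Col10a1 values was not tested.

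FACIT collagens showed small differences. Of 8 measured, 4 lay higher in BMS754807 tumours (median difference -0.03), 6 in hydroxychloroquine tumours (0.07) and 0 in combination tumours (-0.13), each against control. With 1 tumour left out at a time these counts ran from 2 to 5, from 4 to 6 and from 0 to 2, the last without control tumour 5. The 8 values with the combination ran from -0.54 for Col16a1 to -0.01 for Col9a2, and none had an unadjusted p under 0.05 in limma. Col16a1 ran from 6.99 to 8.05 in combination tumours (median 7.36) against 7.30 to 9.03 in control tumours (7.72), and only 1 combination tumour exceeded the control mean. Col20a1 lay at -0.43 ± 0.25 with the combination and at -0.43 ± 0.25 with BMS754807. Col14a1, which binds type I fibrils and had the largest SD of the class after Col16a1, ran from 7.55 to 8.69 in combination tumours against 7.34 to 8.77 in control tumours, a difference of -0.07 ± 0.37.

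Among the remaining classes, Col17a1, the transmembrane collagen of epithelial hemidesmosomes, ran from 3.13 to 3.76 in hydroxychloroquine tumours (median 3.46) against 3.78 to 4.19 in control tumours (3.84). The groups did not overlap, as in 0.154% of all genes in this comparison, but only just, at 3.76 against 3.78. Col17a1 was low-valued (mean 3.84 over all tumours) and had no detection call. The difference was -0.47 ± 0.24 (unadjusted p = 0.0653, adjusted p = 0.979 in limma). The 10 epithelial markers, as a centred per-tumour median, ran from -0.67 to 0.37 in hydroxychloroquine tumours against -0.75 to 0.11 in control tumours, and their part in this value was not tested. Col18a1, whose C-terminal fragment is endostatin, was the steadiest member, with an SD of 0.21 over 24 tumours and differences of 0.09, -0.15 and 0.01 from control (SE 0.13 each). The other multiplexin, Col15a1, was among the most variable (SD 0.82) and had differences of -0.11, -0.13 and -0.40 (SE 0.47 each). Col26a1 reached 4.98 in BMS754807 and 4.86 in hydroxychloroquine tumours, while combination tumours ended at 2.73 and control tumours at 2.86. Its group medians were 2.56, 2.93, 2.47 and 2.54 in the same order, so a few tumours set its differences of 0.59 and 0.78 (SE 0.42), and the first was 0.21 without BMS754807 tumour 1. Col25a1, a transmembrane collagen of neurons, differed from control by 0.17, 0.02 and -0.04 (SE 0.31 each), and Col28a1, a collagen of peripheral nerve, by 0.12, -0.06 and -0.15 (SE 0.18 each).

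The combination was also set against each single agent. Against BMS754807 alone, 12 of 42 collagens lay higher (median difference -0.17), beside 49.2% of all genes. At an unadjusted p under 0.05 there were 3 higher (5.13% of all genes) and 3 lower (3.48%), with 8.61% of all genes in either direction and 0 at an adjusted p under 0.05 in limma. Col10a1 led, at 0.99 ± 0.33 (unadjusted p = 0.00674, adjusted p = 0.393): combination tumours ran from 5.70 to 6.73 (median 6.03) against 4.47 to 5.80 in BMS754807 tumours (5.06). All 6 combination tumours exceeded the BMS754807 mean, although the ranges overlapped slightly. Col4a3 (1.12 ± 0.48) and Col4a5 (0.43 ± 0.18) were the other 2 higher ones, and Col4a2 (-0.67 ± 0.24), Col6a5 (-0.64 ± 0.29) and Col5a3 (-0.89 ± 0.43) the 3 lower ones.

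Against hydroxychloroquine alone, 11 of 42 lay higher in the combination (median -0.24), beside 51.8% of all genes, with 0 called at an adjusted p under 0.05 in limma. At an unadjusted p under 0.05, 2 lay higher (2.8% of all genes) and 2 lower (2.59%), with 5.39% of all genes in either direction. Col17a1 lay 0.69 ± 0.24 higher (unadjusted p = 0.00816, adjusted p = 0.902), and 0.37 without combination tumour 4, which stood at 5.80. Col4a3 lay 1.08 ± 0.48 higher, and Col16a1 and Col2a1 lay at -0.87 ± 0.35 and -0.57 ± 0.23. All 6 combination tumours lay below the hydroxychloroquine mean for both of these. For Col16a1, hydroxychloroquine tumours ran up to 9.63 in tumour 4, and the difference was -0.61 without it. Next by p among the lower ones was Col9a1 at -0.44 ± 0.22, and among the higher ones Col6a4 at 0.27 ± 0.18 (unadjusted p = 0.147 in limma).

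No collagen separated the combination tumours without overlap from control (0.308% of all genes), from BMS754807 (0.651%) or from hydroxychloroquine tumours (0.267%).

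The interaction asks whether the difference made by BMS754807 was the same with and without hydroxychloroquine. No collagen had an adjusted p under 0.05 in limma, and 3 lay higher (2.74% of all genes) and 3 lower (2.31%) at an unadjusted p under 0.05, with 5.05% of all genes in either direction. The higher ones were Col10a1 (1.18 ± 0.47), Col17a1 (0.80 ± 0.34, and 0.47 without combination tumour 4) and Col6a4 (0.57 ± 0.25), and the lower ones Col26a1 (-1.38 ± 0.60), Col6a5 (-0.97 ± 0.41) and Col2a1 (-0.83 ± 0.33), each with adjusted p = 0.951. Of 42 interaction values 15 were above 0, with a median of -0.22, beside 50.7% of all genes. They were above 0 for 2 of 11 fibrillar and 1 of 6 beaded filament collagens, and for 5 of 6 basement membrane and 3 of 3 network collagens.

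Most of the spread of the collagens lay between tumours of the same group, as it did for most genes. The median SD over 24 tumours was 0.67 for the fibrillar class and 0.51 for all 42 collagens, beside 0.33 for all genes. A median of 7.80% of the fibrillar and 16.1% of the beaded filament variance lay between groups. This share was 14.9% for all 42 collagens and 12.2% for all genes. Hydroxychloroquine tumour 4 was the highest of 24 tumours for 13 of the 42 genes and hydroxychloroquine tumour 1 the lowest for 7, while control tumour 5 was the highest for 9. The median of the 11 fibrillar genes, each centred on its own mean, was highest in BMS754807 tumour 6 (0.80), hydroxychloroquine tumour 4 (1.23) and control tumour 5 (1.00). It was lowest in hydroxychloroquine tumour 1 (-0.69), combination tumour 2 (-0.81) and control tumour 2 (-0.78).

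**Figure D3:**
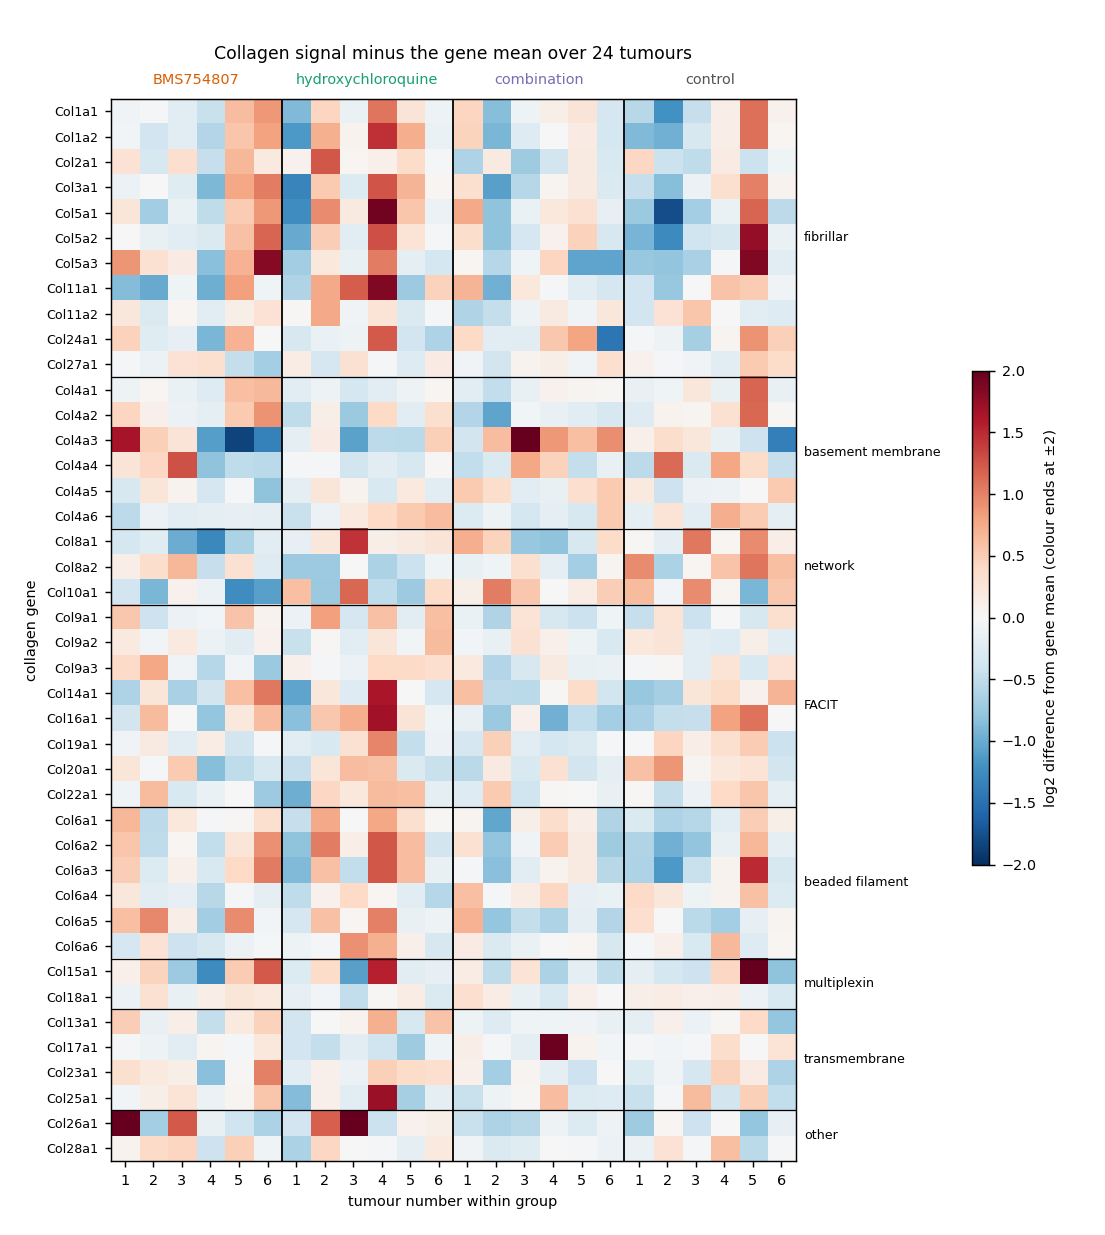
Log2 signal of the 42 collagen genes (vertical axis, by class) in each of 24 tumours (horizontal axis, 6 a group) minus the gene's mean over all tumours, with red above and blue below the mean and colours ending at 2. BMS754807 tumour 6, hydroxychloroquine tumour 4 and control tumour 5 are red across most fibrillar and beaded filament genes, and no group is of 1 colour.

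Some of the cell type marker lists moved with these tumours. The fibroblast markers (13 genes, centred median) had values of 1.32 in BMS754807 tumour 6, 1.48 in hydroxychloroquine tumour 4 and 0.82 in control tumour 5, while the epithelial markers stood at -0.61, -0.67 and -0.75 in the same tumours. By group the fibroblast median ran from -0.61 to 1.32 in BMS754807, -0.67 to 1.48 in hydroxychloroquine and -0.81 to 0.20 in combination tumours, against -0.82 to 0.82 in control tumours. Over the 24 tumours, with group means subtracted, the mean of the fibrillar genes had a Pearson correlation of 0.950 with the mean of the fibroblast list, 0.847 with the endothelial, 0.790 with the macrophage, 0.747 with the pericyte and smooth muscle and -0.548 with the epithelial list. It was weaker with the skeletal muscle (0.293), cartilage and bone (0.212), adipocyte (-0.112) and acinar (-0.065) lists. These correlations are descriptions: each pair of values comes from the same array. The part of these cells in the collagen differences was not tested.

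**Figure D4:**
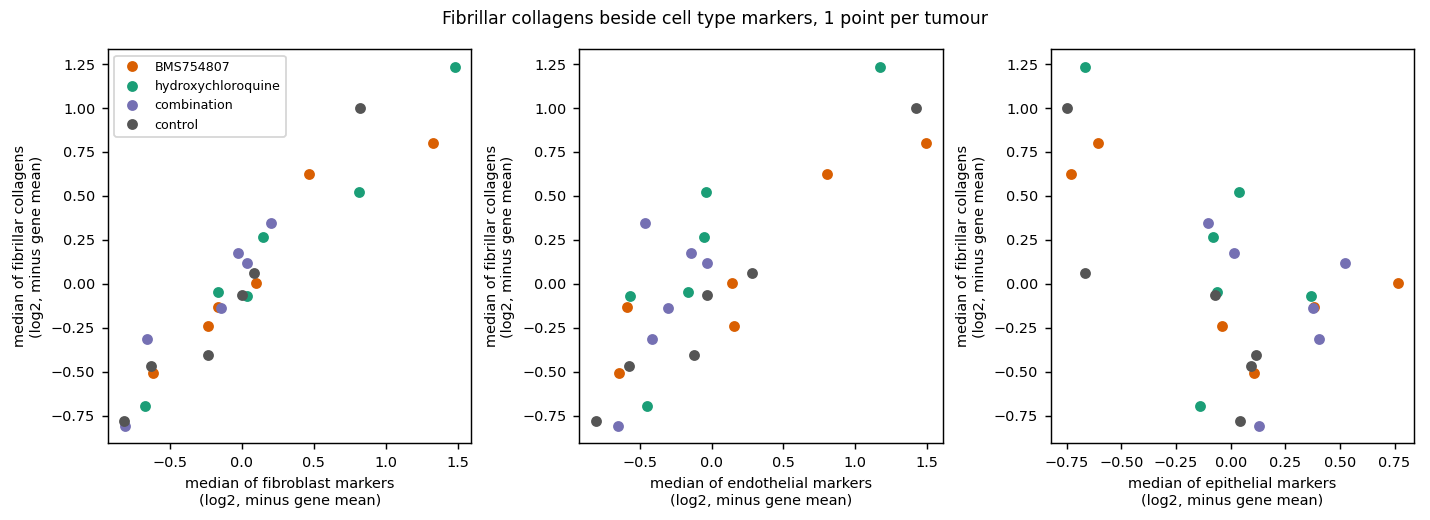
Median of the 11 fibrillar collagens in each tumour (vertical axis, log2 minus gene mean) against the medians of fibroblast, endothelial and epithelial markers (horizontal axes), with 1 point per tumour coloured by group. The fibrillar median climbs with the fibroblast median in all 4 groups, and tumours with the highest fibrillar medians have epithelial medians below 0.

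Within groups, 8 genes moved almost as 1 set. Among Col1a1, Col1a2, Col3a1, Col5a1, Col5a2, Col6a1, Col6a2 and Col6a3, picked out after their values were seen, the 28 pairs had correlations between 0.674 and 0.966 (median 0.917, n = 24 tumours, group means subtracted), whereas the median over all 861 collagen pairs was 0.163. Col1a1 and Col1a2, whose products join in 1 molecule, had the highest value, 0.966 (Spearman 0.954). Other members followed the fibrillar mean, which includes the first 5 of these genes, to differing degrees. Col16a1 stood at 0.771, Col14a1 at 0.761, Col15a1 at 0.746 and Col4a2 at 0.743, while the fibrillar Col2a1 stood at 0.118 and Col27a1 at -0.224. Col18a1 stood at 0.008 and Col10a1 at -0.663, the lowest of the 42.

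Outside the family, the 5 genes with the highest Pearson correlation with the fibrillar mean over 24 tumours were Aebp1 (0.982), Mxra8 (0.972), Mmp2 (0.949), Adam12 (0.949) and Nid1 (0.948). Without the 3 tumours of lowest array weight their values were 0.968, 0.947, 0.936, 0.917 and 0.904.

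Promoter sequence is shown for 3 genes of the set that moved together and share a fibrillar function (Col1a2, Col3a1, Col5a1), for Col6a3 of the same set, and for Col8a1 and Col10a1, which did not follow it. Each stretch is the 150 bases before the annotated start in RefSeq, build GRCm38.p6, read 5′ to 3′ on the gene's strand. They lie at chr6:4505468-4505617 (plus strand, Col1a2), chr1:45311388-45311537 (plus, Col3a1), chr2:27886275-27886424 (plus, Col5a1), chr1:90843972-90844121 (minus, Col6a3), chr16:57754738-57754887 (minus, Col8a1) and chr10:34389831-34389980 (plus, Col10a1). Capitals mark matches on either strand to TATAAA (the TATA box), CCAAT (the CCAAT box) or GGGCGG (the GC box, CCGCCC where it lies on the other strand), which do not overlap here.
Col1a2: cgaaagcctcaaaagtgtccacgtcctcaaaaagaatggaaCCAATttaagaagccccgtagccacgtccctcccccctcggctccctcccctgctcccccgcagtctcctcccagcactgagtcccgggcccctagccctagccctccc
Col3a1: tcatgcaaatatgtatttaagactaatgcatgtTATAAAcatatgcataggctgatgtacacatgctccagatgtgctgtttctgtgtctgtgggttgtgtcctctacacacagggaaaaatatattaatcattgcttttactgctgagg
Col5a1: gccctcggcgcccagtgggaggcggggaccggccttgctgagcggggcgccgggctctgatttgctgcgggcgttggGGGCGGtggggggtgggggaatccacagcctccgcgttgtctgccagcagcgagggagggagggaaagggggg
Col6a3: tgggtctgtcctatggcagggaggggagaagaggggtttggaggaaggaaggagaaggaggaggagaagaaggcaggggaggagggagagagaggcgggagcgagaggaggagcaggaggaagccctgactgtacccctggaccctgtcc
Col8a1: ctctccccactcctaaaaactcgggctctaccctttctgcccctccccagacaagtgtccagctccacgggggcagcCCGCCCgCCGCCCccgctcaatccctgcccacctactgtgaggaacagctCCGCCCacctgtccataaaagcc
Col10a1: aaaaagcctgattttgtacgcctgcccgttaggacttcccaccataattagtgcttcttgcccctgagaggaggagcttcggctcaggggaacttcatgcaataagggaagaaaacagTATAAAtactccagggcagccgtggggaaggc
Col1a2 held a CCAAT, Col3a1 and Col10a1 a TATAAA, Col5a1 1 GGGCGG and Col8a1 3 of them on the other strand, and Col6a3 had none of these letters in its window. Of all 32851 windows of this length in the table, 7.57% held TATAAA, 24.5% CCAAT and 28.6% GGGCGG. Among the 34 of 42 collagens that the table matched, 4, 8 and 18 held them. The genes that moved together thus did not share 1 of these 3 motifs in these windows, and a match is a description, not a binding site.

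Several collagens are neighbours in the genome, among them the head-to-head type IV pairs, which share a start region. Over 8 neighbouring pairs the within-group correlation had a median of 0.574, beside 0.162 for the other 853 pairs. Col3a1 and Col5a2 on chromosome 1 had r = 0.907 and rho = 0.957 (both p = 1e-05 by permutation, the smallest that 100000 draws can give, and adjusted p = 2.67e-05 for r and 4e-05 for rho over 8 relations). Col6a1 and Col6a2 on chromosome 10 had r = 0.906 and rho = 0.903 with the same p-values. Without the 2 tumours farthest from the median these r were 0.885 and 0.897. Both pairs belong to the 8 genes that moved together, whose 28 pairs had a median of 0.917. The permutation p-values ask only whether a pair was correlated, and the part of adjacency in these values was not tested.

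The 3 type IV pairs differed among themselves. Col4a1 and Col4a2 on chromosome 8 had r = 0.783 and rho = 0.770 (adjusted permutation p = 2.67e-05 and 8e-05), with 0.636 without the 2 farthest tumours, and r within groups was 0.851 in BMS754807, 0.657 in hydroxychloroquine, 0.851 in combination and 0.903 in control tumours. Col4a3 and Col4a4 on chromosome 1 had r = 0.631 and rho = 0.682 (adjusted permutation p = 0.0015 and 0.00054), and 0.672 without the 2 farthest. Within groups their r ran from 0.392 (control) to 0.930 (hydroxychloroquine). Col4a5 and Col4a6 on the X chromosome had r = -0.017 and rho = -0.029 (adjusted permutation p = 0.936 and 0.893), and -0.075 without the 2 farthest. Within groups their r ran from -0.477 (control) to 0.468 (combination). Col4a6 averaged only 3.03, the 14.5th percentile of all genes, and had no detection call, so a low r may reflect a weak signal.

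The remaining neighbours were less alike. Col6a4 and Col6a5 had r = 0.517 and rho = 0.537 (adjusted permutation p = 0.0166 and 0.0125), and 0.502 without the 2 farthest tumours. Col6a5 and Col6a6 had r = 0.337 and rho = 0.343 (adjusted permutation p = 0.142 and 0.136), and 0.172 without the 2 farthest. Col9a1 and Col19a1 had r = -0.126 and rho = -0.230 (adjusted permutation p = 0.639 and 0.317), and -0.039 without the 2 farthest. The genes of these pairs averaged between 2.81 (Col19a1) and 3.67 (Col6a6), also without a detection call.

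**Figure D5:**
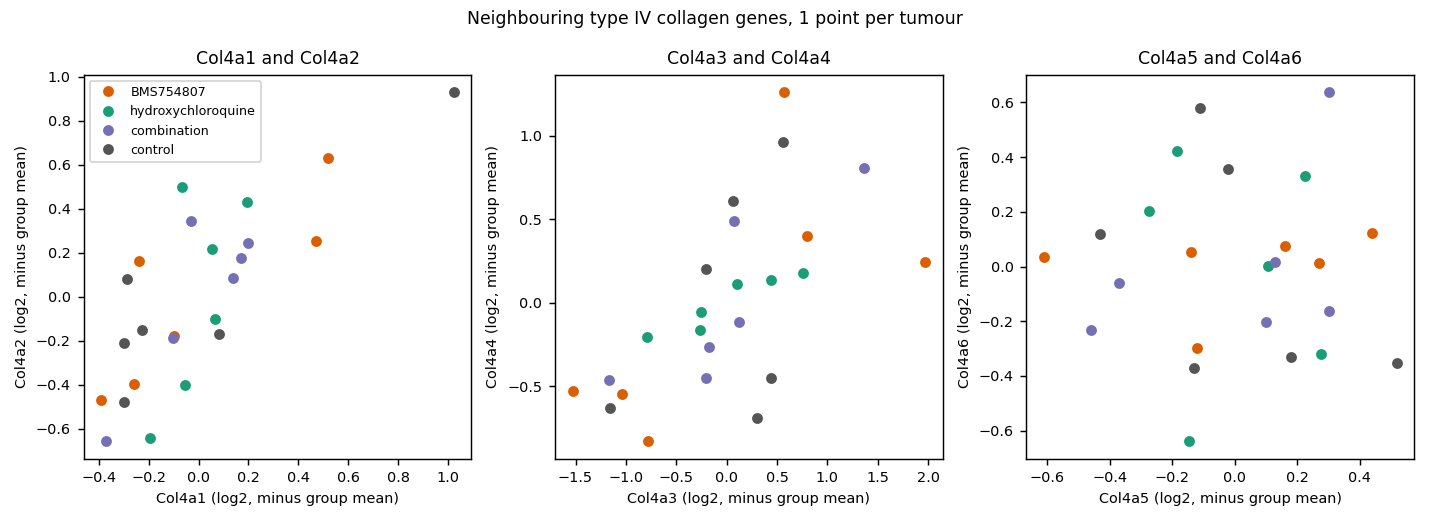
Log2 signal minus the group mean of 3 neighbouring pairs of type IV collagen genes, with 1 point per tumour coloured by group. The points of Col4a1 and Col4a2 (r = 0.783) and of Col4a3 and Col4a4 (r = 0.631) run upwards together. Those of Col4a5 and Col4a6 (r = -0.017) show no slope, and Col4a6 is low-valued without a detection call.

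Genes that act on collagen were read from lists made for this purpose. Of 18 measured collagen-modifying enzymes and chaperones, 11 procollagen processing and cross-linking genes and 8 collagen receptors, 0 had an adjusted p under 0.05 in limma in any comparison. At an unadjusted p under 0.05 there was 1 in BMS754807 against control (5.88% of all genes), 2 in hydroxychloroquine against control (4.81% of all genes) and 0 in the combination against control (5.06% of all genes). Median differences of the enzymes were -0.00 with BMS754807, 0.10 with hydroxychloroquine and 0.06 with the combination. For the processing genes they were 0.09, 0.18 and 0.06, and for the receptors 0.01, 0.01 and 0.03.

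In BMS754807 tumours Pcolce2, which enhances the protease that trims procollagen, lay 0.47 ± 0.17 above control (unadjusted p = 0.0099, adjusted p = 0.822 in limma), and Tll1, a protease of that family, lay at -0.37 ± 0.24. Fkbp14, a prolyl isomerase of the endoplasmic reticulum, lay at -0.24 ± 0.13 and P3h4 at -0.17 ± 0.13, and the receptors Lair1 and Ddr2 at 0.24 ± 0.27 and 0.21 ± 0.36. In hydroxychloroquine tumours Itga11, the collagen-binding integrin chain of fibroblasts, lay 0.87 ± 0.33 above control (unadjusted p = 0.0141, adjusted p = 0.979 in limma) and Fkbp14 0.35 ± 0.13 above it (unadjusted p = 0.0120, adjusted p = 0.979). P4hb, a subunit of prolyl 4-hydroxylase, lay at -0.19 ± 0.10, Pcolce2 at -0.30 ± 0.17, Pcolce at 0.23 ± 0.15 and Itga2 at -0.26 ± 0.14. In combination tumours Gp6, the platelet collagen receptor, lay at -0.40 ± 0.22, Ddr1 at 0.34 ± 0.23, Colgalt2 at 0.34 ± 0.25, Loxl4 at 0.29 ± 0.20, P3h1 at -0.25 ± 0.20 and Pcolce at 0.18 ± 0.15 from control. Over tumours with group means subtracted, the means of the 3 lists had correlations of 0.925, 0.906 and 0.885 with the fibrillar mean (n = 24).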

How the data were processed

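RNA of 24 tumours was measured on Clariom S arrays, 250 ng of total RNA per array, per the labels' protocols. The deposited table holds log2 signal of 22206 probe sets made by the authors, and Transcriptome Analysis Console 4.0 appears in the submitters' processing notes. Its log base was inferred from the values (1.45 to 19.0), and background correction and normalization are not given in the sources used here. The platform annotation gave 19572 probe sets 1 symbol and 2634 none. Keeping the highest-mean probe set per gene dropped 67 and left 19505 genes.

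All 24 arrays entered 1 linear model with a mean for each group (lmFit and eBayes of limma 3.58.1, R 4.3.3, 20 residual degrees of freedom). Contrasts were each treatment against control, the combination against each agent, and the interaction, two-sided, adjusted by Benjamini-Hochberg over all genes, with the threshold at an adjusted p under 0.05. Errors after ± are SE of a difference. Arrays carry no count depth, and their number limits the precision. The fit was checked on simulated data. Permutations and motif searches used Python 3.11.15 and SciPy 1.17.1, and figures matplotlib 3.10.9.

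Given in full were Col1a1, Col1a2, Col3a1, Col4a1, Col4a2 and Col6a1, the 3 members of smallest p in each direction per comparison and the 2 of largest SD per class, and of the lists of genes acting on collagen the 2 of smallest p per comparison with control. The members, classes and lists were chosen with earlier results of these data known. Alternatives were quantile normalization, a filter on dim genes, averaged probe sets, array weights, other eBayes settings, fits to fewer groups, the replicate number as a block, and left-out tumours.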

Additional observations from a re-analysis of the deposited data

Results flagged for a closer look

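Among 30 collagen genes described by group, 120 groups of 6 were examined for a tumour set apart from its group. The gap had to exceed Dixon's 95% critical value for 6 samples, as a share of the group's range. There were 8 such groups, and chance alone gives about 1 in 20, a rate close to this count. Many of the 30 genes were picked for a large SD or small p in these data, so that rate need not hold for them. Col17a1 stood at 5.80 in combination tumour 4, and the next tumour was at 3.97. Col8a1 stood at 7.85 in hydroxychloroquine tumour 3, with the next at 6.66. Col2a1 stood at 5.86 in hydroxychloroquine tumour 2, with the next at 4.99, and Col25a1 at 5.61 in hydroxychloroquine tumour 4, with the next at 3.99. In control tumour 5, Col5a3 stood at 8.03 (next 6.16) and Col4a1 at 13.3 (next 12.36). Col4a6 stood at 3.55 in combination tumour 6, with the next at 2.93, and at 2.50 in BMS754807 tumour 1, below the next at 2.81.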

How the results depend on the processing

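No collagen gene reached an adjusted p under 0.05 in limma under any alternative tried, which with other eBayes settings, quantile normalization, averaged probe sets, a filter on dim genes, array weights, fits to the groups compared and left-out tumours included the 6 comparisons and the test of any difference. With the replicate number as a block the count of collagens called was also 0 in each, and the median differences were 0.03 for BMS754807, 0.06 for hydroxychloroquine and -0.10 for the combination against control; the block changed no collagen call, and over all genes it called 1 in hydroxychloroquine against control. The labels do not say what the replicate number means. Between same-numbered tumours, 36 correlations of their deviations ran from -0.25 to 0.30 (median -0.01), and 9 exceeded 0.1. Those of the tumours numbered 3 were all positive (0.087 to 0.305), and for every other number both signs occurred. Whether same-numbered tumours share a batch was not tested. Leaving out 1 tumour at a time, the count of collagens higher than control ran from 19 to 29 for BMS754807, from 21 to 27 for hydroxychloroquine and from 8 to 19 for the combination. For the combination it was 13 with quantile normalization, 15 with array weights, 16 without the 5 tumours an earlier analysis found rich in muscle transcripts and 19 without the 3 of lowest array weight.

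Differences near 0 changed sign, and the cause was not tested. Col4a1 in BMS754807 against control was 0.014 with array weights, 0.093 without the muscle-rich tumours and 0.094 without the 3 of lowest weight. Col1a2 in the combination against control was 0.20, 0.13 and 0.25 under the same alternatives, and Col6a1 there was -0.010 with quantile normalization. Leaving out single tumours, the ranges against control were -0.11 to 0.20 (Col4a1), -0.078 to 0.23 (Col4a2) and -0.092 to 0.30 (Col3a1) for BMS754807, -0.062 to 0.45 for Col3a1 with hydroxychloroquine, and -0.14 to 0.32 (Col1a1), -0.17 to 0.25 (Col1a2) and -0.093 to 0.19 (Col6a1) for the combination. The SE of 0.13 to 0.48 that the collagen differences from control carry limits what 6 tumours a group can show. Low-valued genes such as Col26a1, Col19a1, Col4a6 and Col17a1 had no detection call.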
